A study of Mus musculus with 32 samples.

Results

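The nuclear genes of oxidative phosphorylation were followed across the stages of a mouse mammary tumour, from normal gland to lung metastasis. Genes were taken by symbol: those beginning Nduf followed by a, b, c, s or v and a digit (complex I), Sdha to Sdhd (complex II), those beginning Uqcr (complex III), Cox4 to Cox8 (complex IV) and Atp5 (complex V), with a mean of 5 CPM (counts scaled to the size of each library) or more over the 32 libraries. Of 85 such rows among the 24454 gene IDs of the count table, 77 met this level: 37 of complex I, 4 of complex II, 8 of complex III, 12 of complex IV and 16 of complex V. All 77 passed the filter on low counts that left 19907 genes for testing. Of these, 76 are protein coding in the RefSeq annotation and 1, Ndufs5-ps, is a transcribed pseudogene. The members lie on 19 chromosomes.

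Oxidative phosphorylation takes place in the inner mitochondrial membrane. Complexes I and II take electrons from NADH and succinate, complex III passes them to cytochrome c, complex IV hands them to oxygen, and complex V, the ATP synthase, makes ATP from the proton gradient that complexes I, III and IV build. Most subunits are encoded in the nucleus and imported, and a few are encoded in mitochondrial DNA. Complex II differs from the others in having no mitochondrial gene and in also being an enzyme of the citric acid cycle. The genes encoded in mitochondrial DNA were not analysed here.

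All mice were female and carried the MMTV-PyMT transgene together with the R26-CBW reporter and K8-CreERT2, so that the polyoma middle T oncogene under a mammary tumour virus promoter drives tumours. Every group, the normal gland included, carried the oncogene and had received tamoxifen (5 mg at 5 weeks of age), which switches on a random fluorescent colour in keratin 8 cells and their progeny. Patches were cut by laser from sections of 7 µm when tumours had reached their largest allowed size, so normal gland here means gland of a tumour-bearing mouse, and the age of the animals at harvest was not given in the sources used here. There were 3 libraries of normal gland, 5 of hyperplasia, 8 of adenoma, 9 of carcinoma and 7 of lung metastasis. Normal 18 was a patch of a single colour in the tumour core, and normal 28 and 30 were pools from several places. Hyperplasia was taken outside the tumour (1 library), at its border (1) and in its core (3), adenoma at the same sites (2, 3 and 3), carcinoma at the border (3 libraries) or core (6), and metastasis at the border of the lung (4) or its centre (3). With 3 animals in the series and no label that ties a patch to its animal, some patches share an animal. The p-values below treat patches as independent and may be too small.

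Total counts ranged from 2688611 to 19585351 per library, with 10258 to 17667 genes detected. The most abundant gene ID, which had no symbol in the RefSeq annotation used here, made up 5.197 to 78.9% of a library (median 24.7%). Detected genes were fewest, under 11000, in hyperplasia 22, adenoma 51 and metastasis 42. Counts were amplified without molecular identifiers, so sampling errors cover counting only. Krt8, the keratin that defines the recombined cells, was present in every stage, with means from 318 ± 104 CPM in normal gland (SD, n = 3) to 856 ± 285 CPM in adenoma (n = 8).

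The promoters of these genes are shown first, because respiratory genes are known targets of the factor NRF1 and of ETS-type factors such as GABP. RefSeq promoter windows (GRCm38.p6, 250 bases before to 50 after the start) were matched for 64 of the 77 members, in 69 windows. The NRF1 motif GCGCATG (or CATGCGC on the other strand) stood in 12 of the 69 windows (17.4%), against 3.91% of all 32851 windows and 5.26% of the 19072 windows of genes tested. The ETS core CCGGAAG (or CTTCCGG) stood in 17 (24.6%), against 8.86% of all windows and 12.8% of those of genes tested. In complex I alone the ETS core stood in 4 of 34 windows (11.8%). Both stood in 6 of the 69 windows (8.70%), against 0.682% of all windows and 1.04% of those of genes tested. Either motif stood in 23 of the 69 (33.3%), against 12.1% of all windows and 17.0% of those of genes tested. The other windows of the members held neither, and no link between motifs and levels was tested. The NRF1 motif can overlap its own match on the other strand, and no NRF1 match overlapped an ETS match in the windows shown. A match describes letters and not a bound site. The 3 windows that follow hold both motifs, and each belongs to the gene with the highest level per length of its complex. This did not hold for every complex. Atp5e, highest in complex V, had an ETS core alone, and no window was matched for Ndufa2, highest in complex I. The other windows with both motifs were those of Atp5k, Atp5l and Ndufb6, at 719, 144 and 214 CPM per kb of transcript. Motifs are in capitals, 5′ to 3′ along the gene's strand. The windows shown are Sdhb at chr4:140961021-140961320 (plus strand), Uqcr11 at chr10:80406772-80407071 (minus strand) and Cox6a1 at chr5:115348909-115349208 (minus strand).
Sdhb: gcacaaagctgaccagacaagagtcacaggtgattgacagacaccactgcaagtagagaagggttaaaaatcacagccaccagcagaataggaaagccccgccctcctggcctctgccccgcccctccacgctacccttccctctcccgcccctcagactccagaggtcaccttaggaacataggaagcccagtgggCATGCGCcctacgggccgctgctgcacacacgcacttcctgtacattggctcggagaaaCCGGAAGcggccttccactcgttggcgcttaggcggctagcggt
Uqcr11: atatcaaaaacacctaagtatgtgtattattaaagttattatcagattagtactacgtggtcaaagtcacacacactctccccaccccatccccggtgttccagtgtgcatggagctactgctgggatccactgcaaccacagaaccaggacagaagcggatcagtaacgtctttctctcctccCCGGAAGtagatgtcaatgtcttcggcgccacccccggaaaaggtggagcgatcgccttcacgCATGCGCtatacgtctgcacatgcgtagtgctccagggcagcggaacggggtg
Cox6a1: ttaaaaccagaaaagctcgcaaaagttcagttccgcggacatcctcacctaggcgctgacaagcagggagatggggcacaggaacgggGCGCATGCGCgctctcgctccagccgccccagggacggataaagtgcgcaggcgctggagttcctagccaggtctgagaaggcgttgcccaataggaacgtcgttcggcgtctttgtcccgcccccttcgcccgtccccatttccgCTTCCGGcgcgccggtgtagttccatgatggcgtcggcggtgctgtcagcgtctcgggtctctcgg
In Sdhb the NRF1 motif began 53 bases before the start and the ETS core at base 7 after it. In Cox6a1 the NRF1 motif was read on both strands, in overlapping matches that began at 162 and 159 bases before the start, and the ETS core began 16 bases before it. The next windows are those of Ndufa8, the complex I member of smallest p over the stages, at chr2:36049289-36049588 (minus strand), which held an NRF1 motif 7 bases before the start, and of Cox7a1, the isoform described below, at chr7:30183921-30184220 (plus strand), in which neither motif was found.
Ndufa8: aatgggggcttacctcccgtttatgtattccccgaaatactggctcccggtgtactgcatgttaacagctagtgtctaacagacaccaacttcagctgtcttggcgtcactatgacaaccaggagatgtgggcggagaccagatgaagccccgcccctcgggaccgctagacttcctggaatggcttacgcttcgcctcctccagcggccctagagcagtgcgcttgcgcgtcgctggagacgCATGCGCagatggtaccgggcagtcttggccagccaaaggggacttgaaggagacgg
Cox7a1: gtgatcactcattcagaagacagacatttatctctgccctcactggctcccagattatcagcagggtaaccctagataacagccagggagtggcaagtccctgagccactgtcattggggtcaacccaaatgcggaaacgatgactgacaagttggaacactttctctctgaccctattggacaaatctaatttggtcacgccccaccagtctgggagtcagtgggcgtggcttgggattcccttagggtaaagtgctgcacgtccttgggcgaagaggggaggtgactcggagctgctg

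Levels of different genes were compared per kilobase of transcript. The median over the members of a complex was 522 CPM per kb for complex IV, 329 for complex III, 298 for complex V, 155 for complex I and 44.05 for complex II. Complex IV was highest and complex II lowest in the mean of every stage. From normal gland through the tumour stages to metastasis, the median per kb of complex IV was 291 ± 106, 534 ± 163, 509 ± 159, 490 ± 197 and 521 ± 150 (SD, n = 3, 5, 8, 9 and 7). Complexes III and V could not be ordered against each other beyond their spread, with 189 ± 27.2 and 163 ± 44.9 in normal gland and 326 ± 101 and 339 ± 97.5 in metastasis. The highest single levels per kb belonged to Cox6a1 (1201 CPM per kb) and Cox4i1 (1123) of complex IV, both structural subunits of cytochrome c oxidase, followed by Ndufa2 (1110), an accessory subunit of complex I, and Uqcr11 (1049), a small subunit of complex III. In complex II the highest was Sdhb (80.0), the iron-sulphur subunit of succinate dehydrogenase, and in complex V Atp5e (961), the epsilon subunit of the rotor. Ndufa4 stood at 1036 CPM per kb. It is counted with complex I here by its symbol, although the protein is now placed in complex IV.

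The level of each complex was lowest on average in normal gland and similar in the tumour stages. As a summary, the mean log2(CPM + 1) over its genes was taken in each library. For all 77 members this score was 7.01, 6.21 and 6.53 in normal 18, 28 and 30. In hyperplasia it was 7.72, 7.26, 7.83, 6.50 and 7.46 in libraries 21, 44, 22, 33 and 46. Hyperplasia 33 lay within the normal range and the other 4 lay above it. In adenoma the lowest, median and highest scores were 6.76, 7.34 and 7.75, in carcinoma 6.34, 7.51 and 7.90, and in metastasis 6.67, 7.56 and 7.89. Each tumour stage thus overlapped the normal libraries at its lower end, through adenoma 51 and 47, carcinoma 53, 38 and 39, and metastasis 42 and 56. The stage means were, in that order, 6.59 ± 0.40, 7.35 ± 0.53, 7.29 ± 0.38, 7.24 ± 0.54 and 7.35 ± 0.45 (SD). As a share of the counts apart from the most abundant gene ID, the members together took 1.84 ± 0.35% in normal gland, against 2.63 ± 0.64%, 2.57 ± 0.49%, 2.60 ± 0.71% and 2.67 ± 0.68% in the tumour stages in the same order.

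**Figure D1:**
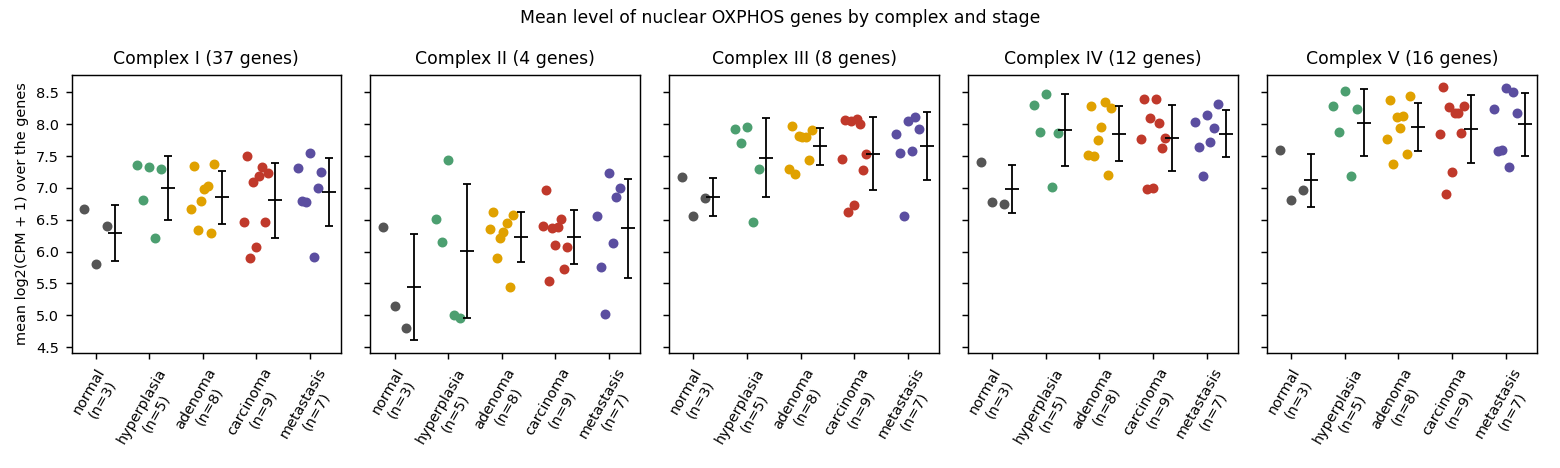
Mean log2(CPM + 1) over the genes of each complex (y axis) for every library, by stage (x axis); points are libraries, and the bar beside them is the mean with its SD. In each panel the normal mean is the lowest, and each tumour stage overlaps the normal libraries except adenoma in complex III, where the lowest adenoma library is at 7.22 and the highest normal library at 7.17.

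By complex, the normal and hyperplasia scores were 6.29 ± 0.44 and 7.00 ± 0.50 for complex I, 5.44 ± 0.83 and 6.01 ± 1.05 for complex II, 6.86 ± 0.30 and 7.47 ± 0.62 for complex III, 6.98 ± 0.37 and 7.91 ± 0.57 for complex IV, and 7.12 ± 0.42 and 8.02 ± 0.52 for complex V (SD, n = 3 and 5). The complexes followed one another from library to library. As a description over the 32 libraries, which share scaling and depth, Pearson's r was 0.93 between complexes I and V (Spearman's rho 0.93), 0.91 between III and IV (rho 0.88) and 0.62 between I and II (rho 0.73). Without the 2 libraries farthest from the median these were 0.90, 0.89 and 0.56.

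Complex II stood apart from complex I in a few libraries. The score of complex II minus that of complex I was -2.34 in hyperplasia 46, -1.76 in metastasis 56 and -1.59 in normal 30, where the median was -0.84 over the hyperplasias and -0.31 over the metastases. In hyperplasia 46 the flavoprotein Sdha was at 40.4 CPM and the membrane anchors Sdhc and Sdhd at 28.3 and 7.57 CPM, while Sdhb was at 87.1 CPM. In metastasis 56 Sdha was at 171 CPM, and Sdhb, Sdhc and Sdhd were at 27.9, 15.7 and 12.4 CPM. Sdha was thus low in hyperplasia 46 and not in metastasis 56. Complex III was also low against complex I in both libraries. The scores of complexes III and I were 7.30 and 7.29 in hyperplasia 46, where the stage means were 7.47 and 7.00. In metastasis 56 they were 6.57 and 6.78, where the means were 7.66 and 6.94. In normal 30 they were 6.84 and 6.40, near the normal means of 6.86 and 6.29.

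The score moved with the depth of the library. Over the 32 libraries it had a Pearson's r of 0.86 (Spearman's rho 0.81) with the log2 of the counts apart from the most abundant gene ID, 0.85 without the 2 libraries farthest from the median and 0.87 after stage means were removed. All 77 members had an r above 0 with that count, with a median of 0.58, where the 12479 tested genes at or above a mean of 5 CPM had a median of 0.09 and 63.3% above 0. The median r was 0.28 for 78 genes of the mitochondrial ribosome and 0.33 for 17 genes of glycolysis. Score and count come from the same libraries, so these values are a description. The count was 7551291 in normal 18, 2067275 in normal 28 and 2717561 in normal 30. The medians of hyperplasia, adenoma, carcinoma and metastasis were 6964106, 6505519, 8561484 and 6339196. The number of detected genes had an r of -0.18 with the score (rho -0.22).

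**Figure D2:**
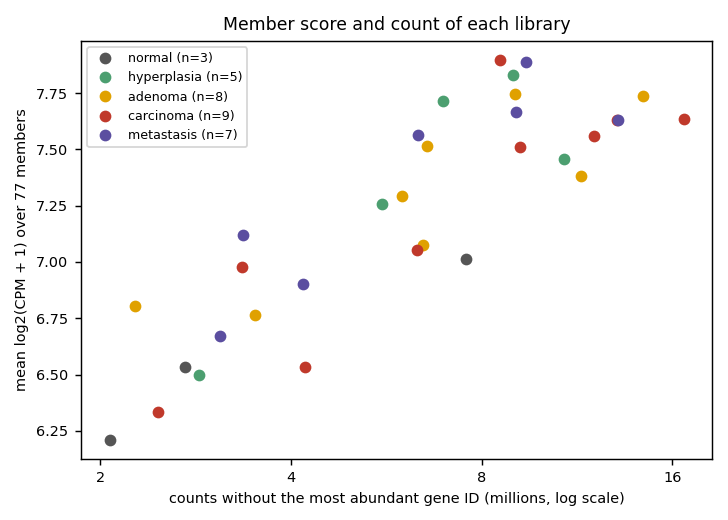
Mean log2(CPM + 1) over the 77 members (y axis) against the counts of the library without its most abundant gene ID (x axis, log scale); each point is 1 of 32 libraries, coloured by stage. Scores run from 6.21 in normal 28, at 2067275 counts, to 7.90 in carcinoma 37, at 8561484 counts.

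Hyperplasia was compared with normal gland to see how the earliest lesion differed. Of the 77 members, 75 had a higher fitted level in hyperplasia, against 49.5% of all 19907 genes tested. Their median log2 fold change was 0.89, against 0.00 for all genes. Of all genes tested, 12479 had a mean of 5 CPM or more, the minimum set for members. No share over these alone was taken in this or the later comparisons. By complex the median was 0.88 for complex I (35 of 37 higher), 0.66 for complex II (4 of 4), 0.90 for complex III (8 of 8), 0.91 for complex IV (12 of 12) and 0.91 for complex V (16 of 16). Those that were not higher were Ndufv1, the subunit that binds NADH, at -0.51 (SE 0.68), and Ndufs3, a core subunit, at -0.01 (SE 1.10). No member passed an adjusted p of 0.05 in edgeR's quasi-likelihood test, nor did any other gene (0.0% of genes tested), and the smallest adjusted p of a member was 0.28. At an unadjusted p under 0.05 there were 20 members, all higher, where 12.4% of all genes passed, 3.68% higher and 8.74% lower. That number was 5 without normal 28, 9 without normal 30 and 4 without hyperplasia 22, and 12 or 13 without adenoma 50, carcinoma 37, 39 or 53 or metastasis 56, which enter through the shared spread and filter. DESeq2 called 2 members (Atp5j2 and Atp5md) among 489 genes, and limma voom 0 members among 105 genes. In 5 members every hyperplasia library lay above every normal library, where 1.35% of all genes did so. In tissue patches such as these, a change in RNA per cell and a change in the share of a cell type cannot be told apart.

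Atp5j2, the f subunit of the ATP synthase membrane part, had the smallest p. It was at 293, 157 and 184 CPM in normal 18, 28 and 30, and at 445, 489, 754, 297 and 787 CPM in hyperplasia 21, 44, 22, 33 and 46. The groups did not overlap, although normal 18 and hyperplasia 33 were close. The log2 fold change was 1.39 (SE 0.43, adjusted p = 0.28 by edgeR). Atp5md, a small subunit associated with dimers of the synthase, was at 57.97, 25.8 and 29.8 CPM in normal gland and at 128, 109, 238, 63.2 and 184 CPM in hyperplasia, in the same library order. Its groups did not overlap either, and its log2 fold change was 1.93 (SE 0.61, adjusted p = 0.28). The other members without overlap were Atp5a1, Atp5g3 and Ndufs4. Atp5a1, the alpha subunit, was at 305 ± 48.1 against 623 ± 298 CPM. Atp5g3, a gene for the c ring, was at 154 ± 24.4 against 321 ± 127 CPM. Ndufs4 of complex I averaged 60.5 against 155 CPM. Of these 5 members, 4 belonged to complex V.

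Some of the higher values came from a single library. Ndufa8, an accessory subunit of complex I, was at 37.2, 35.5 and 51.5 CPM in normal gland and at 121, 92.9, 775, 26.2 and 61.8 CPM in hyperplasia 21, 44, 22, 33 and 46. Hyperplasia 33 lay below all normal libraries, and hyperplasia 22, the library with the fewest detected genes, lay far above all others. Its log2 fold change of 2.38 (SE 0.86) became 0.72 without hyperplasia 22. Sdhd went from 2.25 to 0.55 in the same way, with 356 CPM in hyperplasia 22 and 7.57 to 58.1 CPM in the other 4, Uqcrb of complex III from 1.52 to 0.59, and Cox6b1, a subunit on the outer face of complex IV, from 1.43 to 0.82. Atp5j2 and Atp5md changed less, to 1.12 and 1.55. Without the 3 libraries under 11000 detected genes, 69 of the 77 members were still higher in hyperplasia, with a median of 0.62.

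The members' own median was lower under other scalings, but the median of all genes fell as well. Set against all genes, the difference became smaller with depth as a covariate and without the pooled normal libraries. With DESeq2's size factors 64 members were higher, with a median of 0.50 against -0.35 for all genes, and with total counts 70 were, with 0.58 against -0.31. With the counts apart from the most abundant gene ID as a covariate, 69 members were higher, with a median of 0.50 against 0.09 for all genes, and 3 members had an unadjusted p under 0.05. Without the pooled libraries normal 28 and 30, which leaves normal 18 alone and assumes that it varies like the other groups, 67 members were higher, with 0.56 against 0.34. Complex II then had a median of -0.11.

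**Figure D3:**
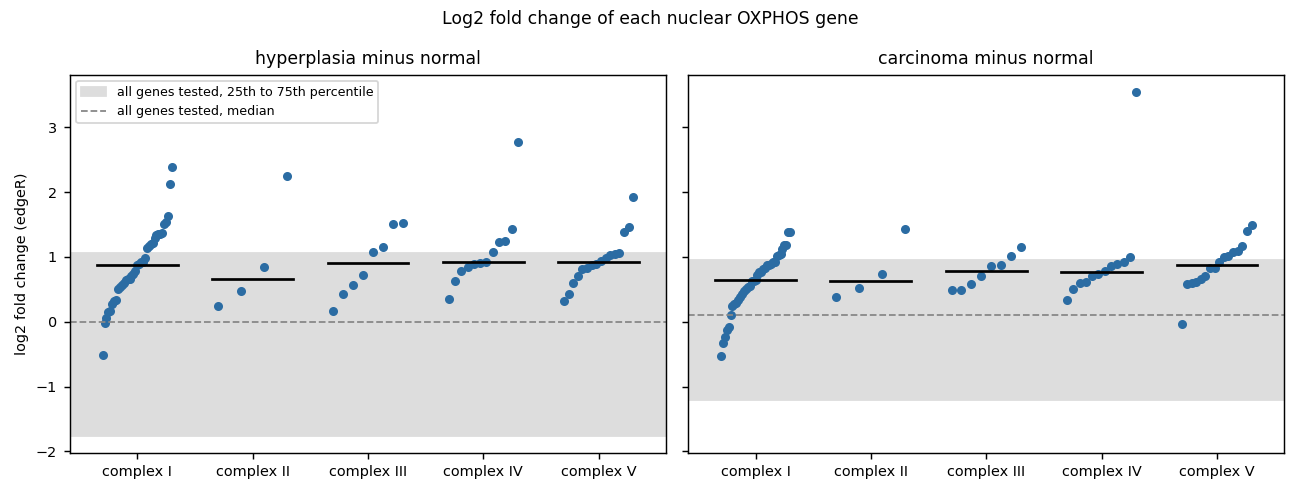
Log2 fold change (y axis, edgeR fit over 32 libraries) of each member by complex (x axis) for hyperplasia and for carcinoma against normal gland; points are genes, black lines medians, the grey band the 25th to 75th percentile of all 19907 genes tested and the dashed line their median. In hyperplasia 75 of 77 members lie above 0 and in carcinoma 71.

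The normal libraries also held more RNA of other cell types. Summed levels of 10 fibroblast markers were 1198 to 4532 CPM in normal gland and 221 to 1436 CPM in hyperplasia, and 9 of the 10 were lower in hyperplasia. Adipocyte markers summed to 111 to 935 CPM against 5.27 to 94.8 CPM (8 of 9 tested lower), macrophage markers to 392.2 to 2979 against 82.1 to 959 (7 of 8 lower), endothelial markers to 63.5 to 73.9 against 13.2 to 48.4 (7 of 8 lower), lymphocyte markers to 88.6 to 1001 against 10.1 to 48.2 (7 of 8 lower) and basal markers to 160 to 261 against 1.73 to 318 (7 of 8 lower). Luminal markers summed to 1205 to 1859 CPM against 1552 to 3715 (7 of 8 higher). None of these lists had a gene called in this comparison, and no gene of them was at 0 in every library. Their part in the higher level of respiratory genes was not tested. Over the 32 libraries, as a description, the score had an r of 0.48 with the luminal list (rho 0.34), 0.27 without the 2 libraries farthest from the median.

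Carcinoma, set against the same 3 normal libraries, gave 71 of 77 members higher, against 52.7% of all genes, with a median of 0.74 against 0.10. The medians were 0.64, 0.63, 0.78, 0.76 and 0.88 for complexes I to V. edgeR called no member and 1 gene in all (0.00502%), the adipocyte gene Cfd, which was lower in carcinoma, and 14 members had an unadjusted p under 0.05 (8.17% of all genes). That number was 2 without normal 28, 5 without normal 30 and 6 without carcinoma 37, and 8 or 9 without hyperplasia 33 or 46, adenoma 36 or 50, carcinoma 08 or 39 or metastasis 40 or 42. DESeq2 called 0 members among 177 genes and limma voom 0 among 316. Atp5g1, a c ring gene, had the smallest p, with 105 ± 47.2 CPM in normal gland (SD, n = 3) and 277 ± 122 CPM in carcinoma (n = 9), a log2 fold change of 1.39 (SE 0.48, adjusted p = 0.30 by edgeR). Uqcr11 was at 265, 151 and 305 CPM in normal 18, 28 and 30, and its 9 carcinoma libraries ran from 228 through a median of 497 to 750 CPM. Only carcinoma 53 fell inside the normal range. Its log2 fold change was 1.01 (SE 0.39, adjusted p = 0.42). No member had groups without overlap, where 0.894% of all genes were higher and 1.25% lower in that way. With DESeq2's size factors 61 members were higher, with 0.31 against -0.31 for all genes. With depth as a covariate 57 members were higher, with a median of 0.26 against 0.14 for all genes. With normal 18 as the only normal library, 64 were higher, with 0.40 against 0.59, so the members then stood below the median gene.

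Between the tumour stages the members' medians stayed close to that of all genes. From hyperplasia to adenoma 33 of 77 were higher (51.8% of all genes), with a median of -0.08 against 0.06. edgeR called none of the 19907 genes (0.0%), with 3 members at an unadjusted p under 0.05 (14.8% of all genes). DESeq2 called 1 member, Ndufa8, among 609 genes, and limma voom 0 among 2. Ndufa8 averaged 215 CPM in hyperplasia and 60.3 CPM in adenoma, a log2 fold change of -1.84 (SE 0.60, adjusted p = 0.18 by edgeR) that became -0.31 without hyperplasia 22. Sdhd showed the same, with -1.65 (SE 0.71) and -0.06 without that library. Ndufa6, an accessory subunit of complex I, averaged 306 CPM and 181 CPM, a log2 fold change of -0.76 (SE 0.37, adjusted p = 0.34).

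From adenoma to carcinoma 31 of 77 were higher (50.6% of all genes), with a median of -0.08 against 0.02. No gene was called by edgeR (0.0%), no member had an unadjusted p under 0.05 (12.6% of all genes), and no member was called by DESeq2 (265 genes) or by limma voom (7 genes). The members of smallest p were Uqcrb, with a mean of 240 CPM in adenoma and 144 CPM in carcinoma (log2 fold change -0.74, SE 0.41), and Atp5mpl, a small subunit of the synthase, with 255 and 175 CPM (-0.54, SE 0.31). Complex II had the lowest median, -0.35, with 3 of 4 genes lower in carcinoma.

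From carcinoma to metastasis 47 of 77 were higher (49.5% of all genes), with a median of 0.10 against -0.01. edgeR called no member and 3 genes in all (0.0151%), the surfactant genes Sftpa1, Sftpb and Sftpc, which were higher in metastasis. No member had an unadjusted p under 0.05 (10.9% of all genes), and neither DESeq2 (186 genes) nor limma voom (19 genes) called one. Ndufs8, an iron-sulphur core subunit, averaged 99.5 CPM in carcinoma and 176 CPM in metastasis (log2 fold change 0.83, SE 0.46, adjusted p = 0.55 by edgeR), and all 4 genes of complex II were higher in metastasis, with a median of 0.47. Sdha ran from 66.3 through 117 to 195 CPM in carcinoma and from 42.9 through 171 to 352 CPM in metastasis. The groups overlapped over most of their range. Lung epithelial markers summed to 406 to 4585 CPM in metastasis and to 1.88 to 43.4 CPM in carcinoma, and red cell markers to 106 to 18867 CPM against 5.34 to 1211 CPM. Their part in these values was not tested.

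Over all 5 stages at once, edgeR called 712 genes (3.58%) and none of the members, of which 7 had an unadjusted p under 0.05 (20.9% of all genes). That number was 1 without normal 28 or normal 30, 3 without hyperplasia 22 and 4 without carcinoma 39 or metastasis 40. DESeq2 and limma voom called 0 members among 338 and 354 genes. Ndufa8 had the smallest p of a member (adjusted p = 0.078 by edgeR), followed by Atp5md (adjusted p = 0.18) and Atp5j2 (adjusted p = 0.19).

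**Figure D4:**
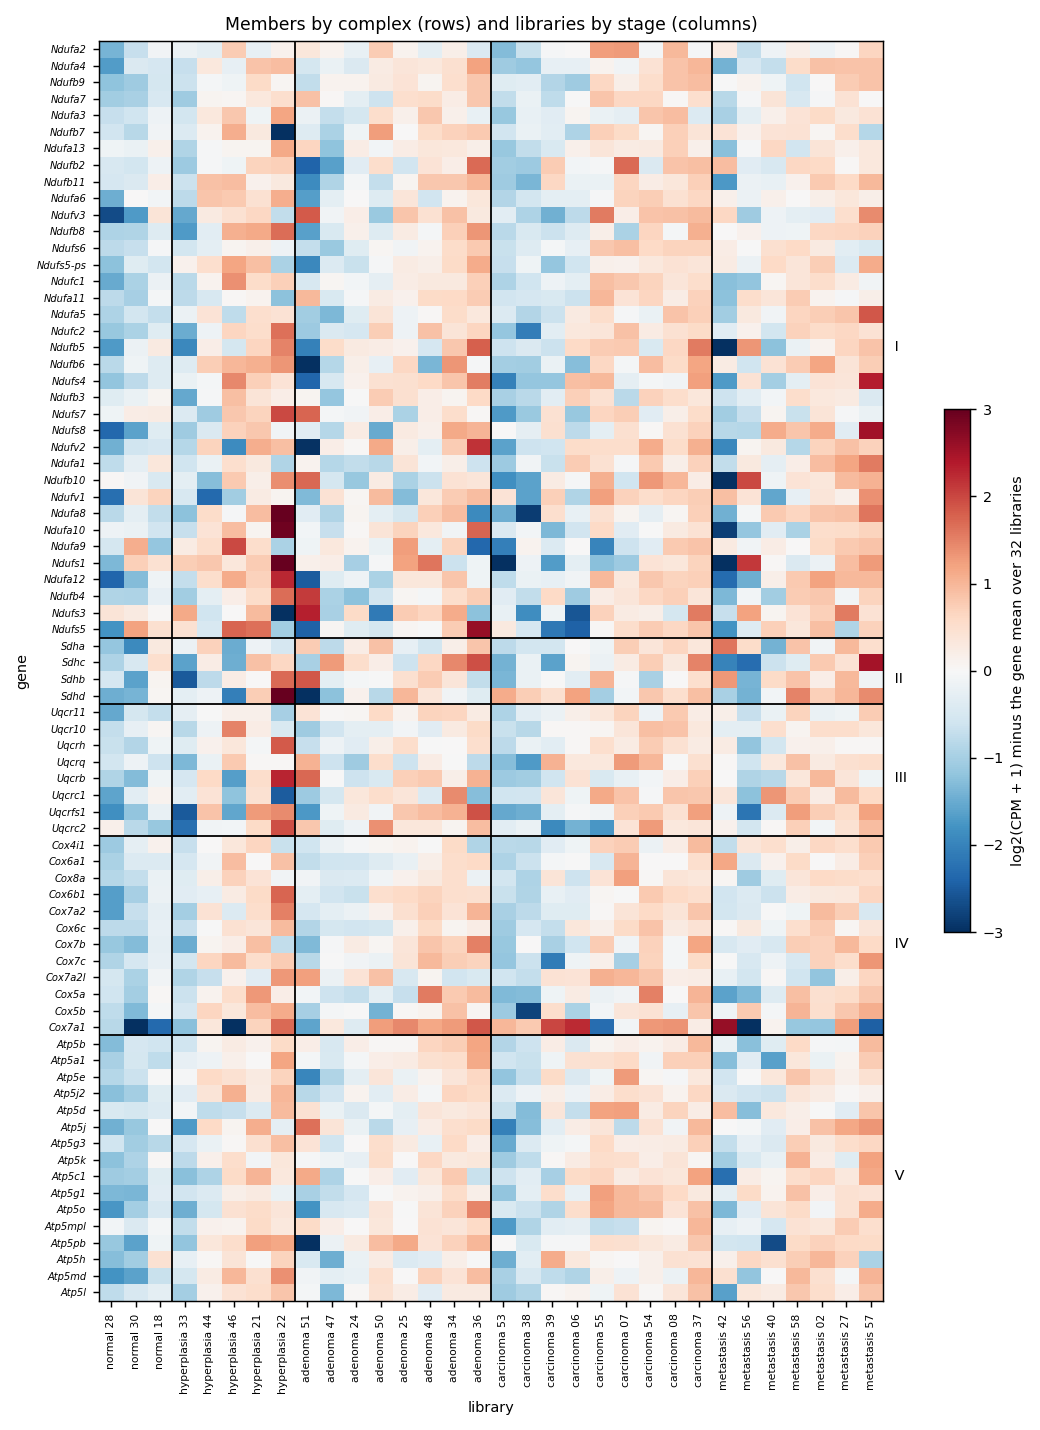
Log2(CPM + 1) of 76 of the 77 members minus each gene's mean over the 32 libraries (colour), with genes in rows by complex and libraries in columns by stage, ordered within a stage by the score of all members and with colours capped at 3 in either direction. Whole columns are low or high, with carcinoma 53 at a score of 6.34 and carcinoma 37 at 7.90 at the ends of 1 stage.

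Within a stage, the members varied less than most genes. The within-stage SD of log2(CPM + 1), pooled over stages, had a median of 0.77 over the members and 1.38 over all genes tested, most of which are less abundant. The medians were 0.81, 1.06, 0.81, 0.67 and 0.63 for complexes I to V. Atp5j2 (0.46) and Uqcr11 (0.47) varied least. The most variable were Cox7a1 (1.56), Ndufs1 (1.42), the largest core subunit of complex I, Ndufs3 (1.37) and Sdhd (1.34). Ndufs1 was at 43.9, 11.8 and 52.3 CPM in normal 18, 28 and 30, at 320 CPM in hyperplasia 22 and 39.8 to 55.9 CPM in the other hyperplasia libraries, and at 0.27 CPM in metastasis 42 and 23.2 to 141 CPM in the other metastases. Hyperplasia 22 and metastasis 42 were among the libraries with the fewest detected genes.

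Among other catalytic, core and structural subunits, those of complexes III to V described here were lowest on average in normal gland, with wide spread. The beta subunit Atp5b averaged 446 ± 124 CPM in normal gland and 828 ± 226, 996 ± 374, 796 ± 313 and 800 ± 379 CPM in the tumour stages from hyperplasia on. Uqcrc1, a core protein of complex III, averaged 79.0 ± 40.8, 88.4 ± 57.7, 121 ± 80.7, 144 ± 61.3 and 162 ± 70.5 CPM in the same order, and Uqcrfs1, the Rieske iron-sulphur protein, 49.6 ± 28.8, 141 ± 112, 153 ± 101, 111 ± 63.2 and 131 ± 77.1 CPM. Cox4i1 averaged 628 ± 245, 804 ± 325, 754 ± 224, 890 ± 400 and 1027 ± 286 CPM, and Cox5a, also of complex IV, 85.2 ± 32.2, 160 ± 81.5, 151 ± 101, 139 ± 94.0 and 135 ± 75.7 CPM. Neighbouring tumour stages differed by less than their SD in each of these. Core subunits of complex I did not all have their lowest mean in normal gland. Ndufv1 averaged 85.8 ± 61.3 CPM in normal gland and 60.2 ± 34.1 CPM in hyperplasia. Ndufs3 averaged 23.2 ± 2.84 CPM in normal gland and 21.3 ± 17.0 CPM in carcinoma, and Ndufs7 116 ± 16.1 CPM in normal gland, 109 ± 56.8 CPM in carcinoma and 90.2 ± 31.0 CPM in metastasis.

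Several subunits of complex IV have isoforms that are largely restricted to muscle, brown fat, testis or lung. The general isoforms prevailed in every stage. Cox6a1 averaged 426 to 845 CPM by stage and Cox6a2, the muscle form, at most 1.004 CPM. Cox4i1 averaged 848 CPM over all libraries and Cox4i2, a lung and low-oxygen form, 0.445 CPM. Cox8a stood at 559 and Cox8b and Cox8c at 4.44 and 0.437 CPM, Cox7b at 378 and Cox7b2 at 0.405 CPM, and Cox6b1 at 485 and Cox6b2 at 2.94 CPM. Of the c ring genes, Atp5g1 and Atp5g3 averaged 222 and 293 CPM and Atp5g2 1.71 CPM, and Ndufa4 averaged 550 CPM against 1.04 CPM for Ndufa4l2. The genes just below the minimum of 5 CPM were Cox8b, Cox6b2 and Atp5g2, and those just above it Ndufs5 (6.24), Cox7a1 (14.0) and Ndufs3 (26.9). Ndufs5 and its pseudogene copy Ndufs5-ps (197 CPM) cannot be told apart with certainty, since how reads that fit both were counted was not given in the sources used here.

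Cox7a1, the heart and muscle form of subunit VIIa, was the exception that met the minimum. It was at 0.776, 4.04 and 0 CPM in normal 18, 28 and 30 and at 13.2, 10.3, 28.1, 2.72 and 0 CPM in hyperplasia 21, 44, 22, 33 and 46. In adenoma its lowest, median and highest values were 1.998, 19.7 and 31.5 CPM, in carcinoma 0.842, 16.7 and 41.2 CPM, and in metastasis 0, 3.05 and 53.8 CPM. The tumour stages reached far above the normal libraries and each overlapped them. Its log2 fold change from normal gland to carcinoma was 3.55 (SE 1.75, adjusted p = 0.61 by edgeR). The general form Cox7a2 averaged 248 ± 109 CPM in normal gland and 448 ± 185 CPM in carcinoma. The 10 markers of brown fat and muscle summed to 18.02 to 58.9 CPM in normal gland and 10.2 to 62.6 CPM in carcinoma, and their part in the Cox7a1 values was not tested. Cox8b, also a muscle and brown fat form, was at 23.4, 4.30 and 0 CPM in normal gland, at up to 20.98 CPM in the primary lesions, and above 0 in 1 of 7 metastases, metastasis 56, at 0.730 CPM.

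**Figure D5:**
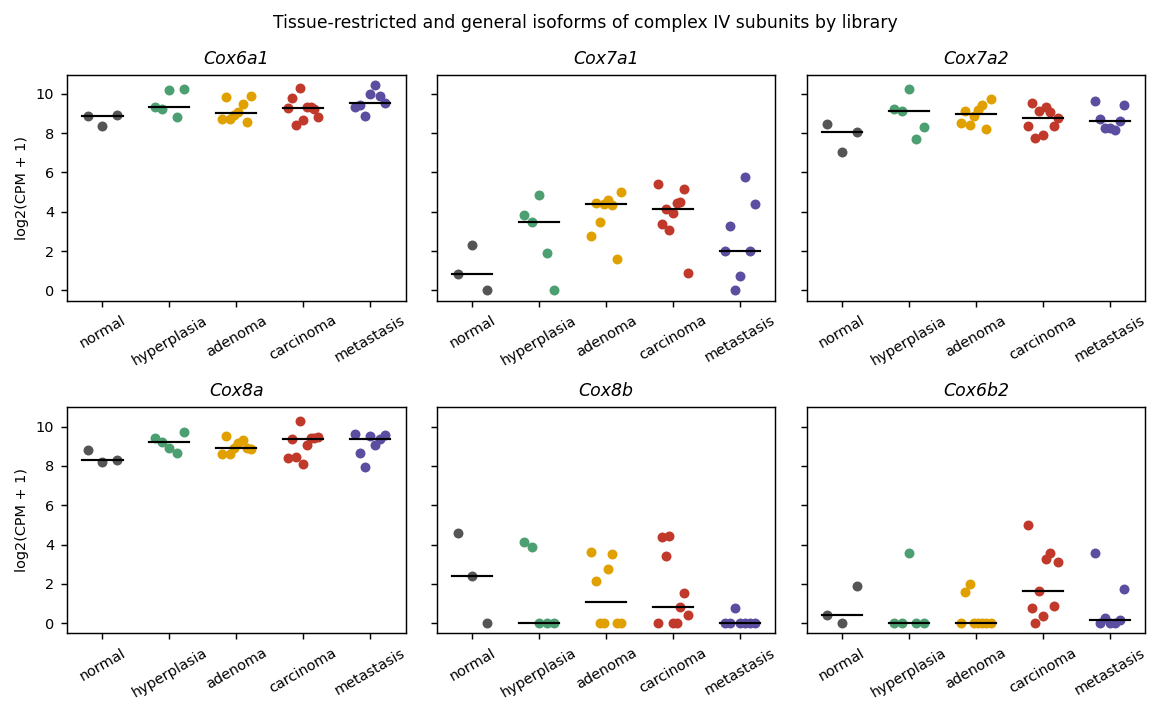
Log2(CPM + 1) (y axis) of general and tissue-restricted isoforms of complex IV subunits in every library, by stage (x axis); points are libraries and black lines medians. Cox6a1, Cox7a2 and Cox8a are high throughout, and Cox7a1 ranges from 0 to 53.8 CPM.

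By site, no comparison called a gene in edgeR (0.0% in each). In carcinoma, core against border, 30 of 77 members were higher in the core (55.8% of all genes), with a median of -0.14 against 0.15, no member at an unadjusted p under 0.05 (4.88% of all genes), and none called by DESeq2 (401 genes) or limma voom (1 gene). The score of all members was 7.38 ± 0.35 at the border (n = 3) and 7.17 ± 0.63 in the core (n = 6), a difference within the spread of the core, whose libraries ran from 6.34 to 7.90. The smallest p belonged to Ndufa2, with 1028 CPM on average at the border and 622 CPM in the core (log2 fold change -0.73, SE 0.43, adjusted p = 0.95 by edgeR). Without carcinoma 37, a core library, 13 members were higher in the core, without carcinoma 39, a border library, 18 were, and without carcinoma 38, a core library, 38 were.

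In adenoma, core against border, 27 of 77 members were higher in the core (46.1% of all genes), with a median of -0.28 against 0.00, and complex IV had the lowest median, -0.56. Ndufb2 alone had an unadjusted p under 0.05 (10.3% of all genes), and DESeq2 (1256 genes) and limma voom (0 genes) called no member. Ndufb2, an accessory subunit of complex I, averaged 324 CPM at the border and 108 CPM in the core (-1.58, SE 0.72, adjusted p = 0.48 by edgeR). Sdhc was at 197, 123 and 306 CPM in the border libraries 47, 48 and 36 and at 116, 51.7 and 39.96 CPM in the core libraries 24, 25 and 51. Border and core did not overlap for Sdhc and for Ndufv1, both lower in the core, where 2.68% of all genes were so.

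In metastasis, lung border against lung centre, 38 of 77 members were higher at the border (11545 of 19907 genes tested), with a median of -0.03 against 0.32 for all genes and scores of 7.37 ± 0.44 (n = 4) and 7.32 ± 0.56 (n = 3). No member had an unadjusted p under 0.05 (8.85% of all genes), and none was called by DESeq2 (906 genes) or limma voom (2 genes). Cox7a1 averaged 3.08 CPM at the border and 25.7 CPM in the centre (-3.06, SE 1.58, adjusted p = 0.56 by edgeR), with metastasis 42, a centre library, at 53.8 CPM. Ndufa11 was the only member without overlap, higher at the border, where 1.82% of all genes were so.

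In hyperplasia and adenoma, patches outside the tumour were compared with those in its core by the average of the differences within each stage. Here 48 of 77 members were higher outside (33.8% of all genes), with a median of 0.20 against -0.74 for all genes. Of the 5 members with an unadjusted p under 0.05 (5.99% of all genes), Ndufb7 and Uqcr10 had a fitted log2 fold change above 0, and Uqcrb, Sdhd and Cox7a1 one below 0. DESeq2 called Uqcrb, Sdhd and Cox7a1, each with a fold change below 0, among 1962 genes, and limma voom called 0 genes. For Cox7a1 the fitted value was -4.61 (SE 2.10), and hyperplasia 46, the single outside library of its stage, was at 0 CPM. The outside adenoma libraries 34 and 50 were at 20.6 and 20.4 CPM, and the plain means were 13.6 CPM outside and 12.5 CPM in the core. Ndufb7, an accessory subunit of complex I, was at 460, 350 and 518 CPM in hyperplasia 46, adenoma 34 and adenoma 50 outside the tumour and at 26.5 to 268 CPM in the 6 core libraries. These did not overlap, where 1.17% of all genes were higher in that way, and the log2 fold change was 1.38 (SE 0.53, adjusted p = 0.67 by edgeR). Uqcrb was at 49.3, 178 and 114 CPM in the same outside libraries and at 102 to 765 CPM in the core, and its log2 fold change of -1.95 (SE 0.68) became -1.44 without hyperplasia 22. That of Sdhd went from -2.39 (SE 1.08) to -1.56 in the same way. The outside group of hyperplasia was a single library. With total counts 35 of the 77 members were higher outside, and with depth as a covariate 30 were, with a median of -0.16 against -0.63 for all genes. Over 11 other settings, these included, the members' median minus that of all genes ran from 0.47 to 1.03.

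The other genes of mitochondrial energy metabolism showed no call in any list in the comparison of hyperplasia with normal gland. Of 78 genes of the mitochondrial ribosome, which makes the mitochondrially encoded subunits, 68 were higher in hyperplasia, with a median of 0.89. Mrpl52 and Mrps6, the most abundant, averaged 219 ± 57.4 and 73.5 ± 12.3 CPM in normal gland and 290 ± 71.9 and 232 ± 149 CPM in hyperplasia. All 4 respiratory genes outside the symbol rule were higher (median 0.69), among them Cyc1, the cytochrome c1 of complex III, with 48.4 ± 24.3 and 114 ± 63.9 CPM. Of 46 assembly factors 31 were higher (median 0.57), of 17 citric acid cycle genes 12 (0.58), of 17 glycolysis genes 14 (0.70), of 13 fatty acid oxidation genes 10 (0.31) and of 16 regulators of mitochondrial biogenesis and hypoxia 9 (0.37). Tfam, the mitochondrial transcription factor, averaged 21.4 ± 17.4 CPM in normal gland and 75.2 ± 49.4 CPM in hyperplasia. The regulators as a list did not follow it. Their mean log2(CPM + 1) was 3.74 ± 0.44 in normal gland and 3.52 ± 0.71 in hyperplasia, and none had an unadjusted p under 0.05 by edgeR. From carcinoma to metastasis the glycolysis list had 5 of 17 genes higher (median -0.29) and the citric acid cycle list 10 of 17 (0.11). Of all genes, 49.5% were higher (median -0.01). The step from adenoma to carcinoma went the other way, with 12 of 17 (0.17) and 4 of 17 (-0.15), against 50.6% of all genes (0.02). No gene of either list was called in these steps. No test of a list was made.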

How the data were processed

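RNA was sequenced from 32 laser-captured patches. Per the labels' protocols, cDNA was primed with oligo-dT, amplified by Smart-seq2 chemistry and made into Nextera XT libraries. The deposited values are raw counts per gene ID, made by the authors without normalization. STAR and mm10 are named in the submitters' processing notes, and the label of the count table names quasR. Annotation, strand setting and the handling of multiply aligned reads were not given in the sources used here. Symbols came from RefSeq GRCm38.p6, in which 24374 of 24454 IDs were found and 80 were not.

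Counts were filtered with filterByExpr on stage, scaled by TMM and fitted by edgeR's quasi-likelihood method on all 32 libraries (1 term for each stage, or for each stage at each site), with two-sided tests called at 0.05 after Benjamini-Hochberg adjustment over 19907 genes. CPM values use TMM effective library sizes. Each SE of a log2 fold change was worked back from its test, as the absolute log2 fold change over the square root of F. Levels per kb use the median length of principal GENCODE M21 transcripts, available for 76 members. Versions were edgeR 4.0.16, DESeq2 1.42.0 and limma 3.58.1, run in R 4.3.3. The fits were also run on simulated counts, with changes planted in carcinoma that were larger than the members' medians here. That run does not show whether differences as small as these medians could be called. Groups came from the labelled stage and site. The members, lists, comparisons and named genes were chosen with earlier results of these data known. Named genes were those called and, in each complex, the 2 of smallest p and of highest level per kb. A list of core and structural subunits, the isoform sets and those nearest 5 CPM were named too. The values of 1 core subunit are not reported here, though counts and scores over the members hold it. Ndufs4, Ndufs7, and the members named for leaving out a library, were named after their values were seen. Replicates are patches of 3 animals, and p-values measure the spread between patches.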

Additional observations from a re-analysis of the deposited data

Results flagged for a closer look

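Within the stages of 5 to 9 libraries, the scores of the complexes and the log2(CPM + 1) of each named gene were searched for a highest or lowest library far from the rest, by Dixon's ratio at its 95% critical value. Of 276 such groups, 22 were marked. Chance alone marks about 1 in 20 where values spread normally, which does not hold for genes near 0 in most libraries. A gene at 0 in every other library of the stage is marked at any value above 0. Metastasis 42 and metastasis 56 gave 4 each and hyperplasia 22 gave 3.

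In metastasis 56 the score of complex III was 6.57, against 7.54 to 8.12 in the other metastases, with Uqcrc1 at 5.53 on the log2 scale. In metastasis 42, a library with few detected genes, Cox4i1 was at 8.88, Ndufa11 at 6.12, Ndufb10 at 2.26 and Ndufs1 at 0.35, each the lowest of its stage, and in adenoma 51 Ndufa6 was at 5.995 and Sdhd at 0.65. Hyperplasia 22 was highest for Atp5a1 (10.17), Ndufs1 (8.33) and Cox6b2 (3.55), an isoform at 0 in the other hyperplasias. Hyperplasia 33 was lowest for Cox7c (6.89) and Ndufa7 (7.23), and metastasis 57 for Ndufb7 (6.92). The 3 libraries with the fewest detected genes thus gave 9 of the 22.

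The others concern isoforms listed at or near 0 in the remaining libraries of the stage. Cox4i2 was at 0.34 in hyperplasia 21 and 0.86 in adenoma 24, Cox7b2 at 3.30 in carcinoma 38 and 0.24 in metastasis 56, Cox8b at 0.79 in metastasis 56, and Cox8c at 1.60 in adenoma 47, 3.59 in carcinoma 39 and 0.26 in metastasis 40.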

How the results depend on the processing

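The number of members called stayed at 0 in all 10 comparisons when each library was left out in turn, with a range of 0 to 0 in each. It also stayed at 0 under other scalings in edgeR, limma voom, covariates, the fit of only the groups compared and the removal of the most abundant gene ID or of the libraries with few detected genes. The exceptions were the DESeq2 test, which called 2 members from normal gland to hyperplasia, 1 from hyperplasia to adenoma and 3 outside against core, and the fit without a filter, which called 1 member over all stages, Ndufa8. The median of the members minus that of all genes moved by more than the within-stage SD of the score (0.47) under 2 settings added after seeing the data. With depth as a covariate it was 0.41 for hyperplasia and 0.11 for carcinoma against normal gland and 0.47 outside against core. Without the pooled normal libraries it was 0.23 and -0.19. The score of complex III in normal gland was 7.16 by total counts. By a mean of 5 CPM from total counts and of 10 CPM the members numbered 78 and 76. Leaving out 1 library left the hyperplasia median between 0.62 and 1.17 and the carcinoma median between 0.54 and 0.99. The shallowest library, normal 28, held 2067275 counts apart from the most abundant gene ID, and every comparison with normal gland rests on 3 libraries, of which 2 were pools. No paired analysis was possible because the replicate numbers are unique to each library. Leaving out hyperplasia 46 gave no value for the comparison outside against core, which then has no outside library of that stage. The comparison over all stages could not be restricted to 2 groups.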
